A study of Mus musculus with 12 samples.

Results

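Nanog, Sall4, Utf1, Nr0b1, Nr5a2, Nodal and Tdgf1 are 7 genes of the mouse pluripotency network that gave a higher signal in reprogramming fibroblasts carrying a Chaf1a hairpin than in control cells at day 6. They were chosen from that day 6 contrast, so its values describe the choice and are given without a test. A gene was measured by a probe set that names it alone, and where several did, by the brightest over the 12 arrays. The 7 genes are 7 of 22180 genes with a probe set of their own and 7 of the 17860 that were tested. All 7 passed the low-value filter, which asked for a signal at or above an array's own 30th percentile on at least 3 arrays, and Tdgf1 passed only through the 3 day 6 knockdown arrays.

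The cells were mouse embryonic fibroblasts from E13.5 embryos of a mixed C57Bl/6 and 129X1/SvJ strain background with the genotype Col1a1::tetOP-OKSM ; R26-M2rtTA. This genotype places the reprogramming factors Oct4, Klf4, Sox2 and c-Myc (OKSM) under a doxycycline-responsive promoter and supplies the transactivator that doxycycline switches on. Every group carried both alleles, received a retroviral hairpin, was given doxycycline and was grown in embryonic stem cell medium with 15% serum and 1000 U/ml of the cytokine LIF. The 4 groups, of 3 arrays each, were a Renilla luciferase control hairpin at day 3, a hairpin against the histone chaperone CAF-1 at day 3, and the same hairpins at day 6. Chaf1a is the large subunit of CAF-1, which places histones on newly copied DNA. The series asks how lowering CAF-1 changes the early course of reprogramming. The labels name no clone, embryo or separate culture for a replicate, so a p-value measures the spread between these samples, which may be technical. In a bulk culture, a signal from fewer cells and a signal from less RNA per cell cannot be told apart.

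The Chaf1a signal was lower on every knockdown array than on every control array at day 3. Its log2 intensities were 7.44, 7.72 and 7.42 in control and 7.35, 7.18 and 7.19 in knockdown, a difference of -0.29 (SE 0.09, limma unadjusted p = 0.0098, adjusted p = 0.726). There 10.8% of all genes had groups that did not overlap in either direction, and 6.01% had an unadjusted p under 0.05. At day 6 the Chaf1a values were 7.06, 7.30 and 7.31 in control and 7.04, 7.16 and 7.11 in knockdown, with overlapping groups and a difference of -0.12 (SE 0.09, limma adjusted p = 0.999). From day 3 to day 6 Chaf1a differed by -0.30 in control cells and by -0.14 in knockdown cells. None of the 4 induced factors passed the test at either day, and their day 6 knockdown minus control differences were 0.05 (Pou5f1), 0.02 (Sox2), 0.04 (Klf4) and -0.04 (Myc) (limma adjusted p = 0.999 for each, with 0 of the 4 under an unadjusted 0.05). Of all genes 0% passed at day 3, and at day 6 0.0392% were called higher and 4.44% had an unadjusted p under 0.05. Whether the probe sets of the 4 factors read the transcript of the cassette is not given in the sources used here. All 12 fibroblast markers lay above the floor in the 9 arrays other than day 6 knockdown, and 11 of 12 did so on all 3 of those. The array medians lay between log2 intensities of 5.30 and 5.44, and Pearson's r between arrays of a group was 0.991 to 0.995. Olfactory receptor genes, 1105 in number and not known to be used by fibroblasts, had a 95th percentile of 5.34 to 5.48 per array.

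Pluripotent cells of the early embryo, and the stem cells derived from them, are held in their state by a network of transcription factors that support each other's expression. During reprogramming of fibroblasts, epithelial genes and a few early markers appear first, and much of the endogenous network is switched on late and in a minority of cells. Nanog is a homeodomain factor at the core of that network. Sall4 is a zinc-finger factor that acts with it. Utf1 is a chromatin-associated protein found in undifferentiated cells. Nr0b1 (Dax1) and Nr5a2 (Lrh1) are orphan nuclear receptors, of which Nr5a2 binds DNA by itself and Nr0b1 lacks a classical DNA-binding domain and acts on partner receptors. Nodal is a ligand of the TGF-beta family, and Tdgf1 (Cripto) is the membrane-anchored co-receptor that lets Nodal signal through activin receptors.

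The 250 bases before the start site show what the proximal promoters of these genes hold. RefSeq windows on GRCm38.p6 were found for 6 of the 7 genes, all but Sall4, and 4 are printed 5′ to 3′ on the gene's strand. Nanog and Nr5a2 each had 2 windows, of which only the one with the start furthest upstream was read. Nanog is shown for its adjacent octamer and Sox-type matches, Tdgf1 and Nr0b1 for being the genes with the highest day 6 knockdown minus control differences of the 7, and Nodal as a window with no match. Capitals mark matches, on either strand, to the octamer TTTGCAT, the Sox-type ACAATG, the Klf-type GGGNGTGG, the nuclear receptor site AAGGTCA and the TATA box TATAAA.
Nanog (chr6:122707239-122707488, + strand): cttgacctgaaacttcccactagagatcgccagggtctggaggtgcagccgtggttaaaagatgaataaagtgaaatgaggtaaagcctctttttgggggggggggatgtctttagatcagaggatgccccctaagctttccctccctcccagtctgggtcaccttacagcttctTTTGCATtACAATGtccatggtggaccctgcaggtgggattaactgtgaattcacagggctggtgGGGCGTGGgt
Tdgf1 (chr9:110946159-110946408, - strand): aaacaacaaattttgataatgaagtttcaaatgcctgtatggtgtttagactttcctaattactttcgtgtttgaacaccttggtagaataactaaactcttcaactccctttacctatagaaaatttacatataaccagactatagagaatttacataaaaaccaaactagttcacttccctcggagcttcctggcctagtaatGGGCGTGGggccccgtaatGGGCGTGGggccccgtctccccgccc
Nr0b1 (chrX:86191525-86191774, + strand): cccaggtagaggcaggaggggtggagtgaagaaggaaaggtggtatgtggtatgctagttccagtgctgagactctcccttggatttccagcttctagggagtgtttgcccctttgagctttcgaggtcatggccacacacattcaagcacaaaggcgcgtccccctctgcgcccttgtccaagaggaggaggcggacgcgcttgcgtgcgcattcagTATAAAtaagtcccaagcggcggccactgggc
Nodal (chr10:61417722-61417971, + strand): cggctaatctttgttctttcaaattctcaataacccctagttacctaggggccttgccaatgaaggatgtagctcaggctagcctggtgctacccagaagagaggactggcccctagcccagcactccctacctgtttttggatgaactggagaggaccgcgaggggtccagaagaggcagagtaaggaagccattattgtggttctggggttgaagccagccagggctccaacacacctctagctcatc
In Nanog the octamer began 75 bases before the start and the Sox-type match 67 bases before it, with 1 base between them, and a Klf-type match began at 10. Tdgf1 held 2 Klf-type matches, which began 45 and 26 bases before the start and were followed by the same letters. Nr0b1 held a TATA box match that began 32 bases before the start. Of the windows not printed, Nr5a2 (chr1:136960449-136960698, - strand) held a TATA box match on the other strand that began at 181, and Utf1 (chr7:139943606-139943855, + strand) held none. No match overlapped another, and AAGGTCA was in none of the 6 windows. Among the windows of 27025 genes, 4.07% held the octamer, 10.9% the Sox-type motif, 15.9% the Klf-type motif, 4.04% the nuclear receptor site and 13.0% the TATA box. Over those genes the median GC content was 52%, with an interquartile range of 44.8 to 60.8, and the median number of CpG was 6. The windows ran from 42% GC in Tdgf1 and 43.2% in Nr5a2, through 52% in Nanog, 53.2% in Nodal and 57.2% in Nr0b1, to 61.6% in Utf1. They held between 2 CpG in Nr5a2 and 14 in Utf1. These matches describe letters in 6 windows, and no binding was measured here.

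At day 6 the 7 genes were higher on every knockdown array than on every control array, in a contrast in which 5% of all genes tested were higher without overlap. That count was fixed by the choice of the genes. The differences of the group means ran from 0.34 on the log2 scale for Nodal to 1.77 for Tdgf1, whose control values were below the floor, with a median of 0.78 beside -0.01 over all genes. At day 3 none of the 7 genes passed limma's test between the hairpins, and their signal in control cells stayed near its day 3 level at day 6. The plot of each gene on 12 arrays shows the 4 groups side by side.

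**Figure D1:**
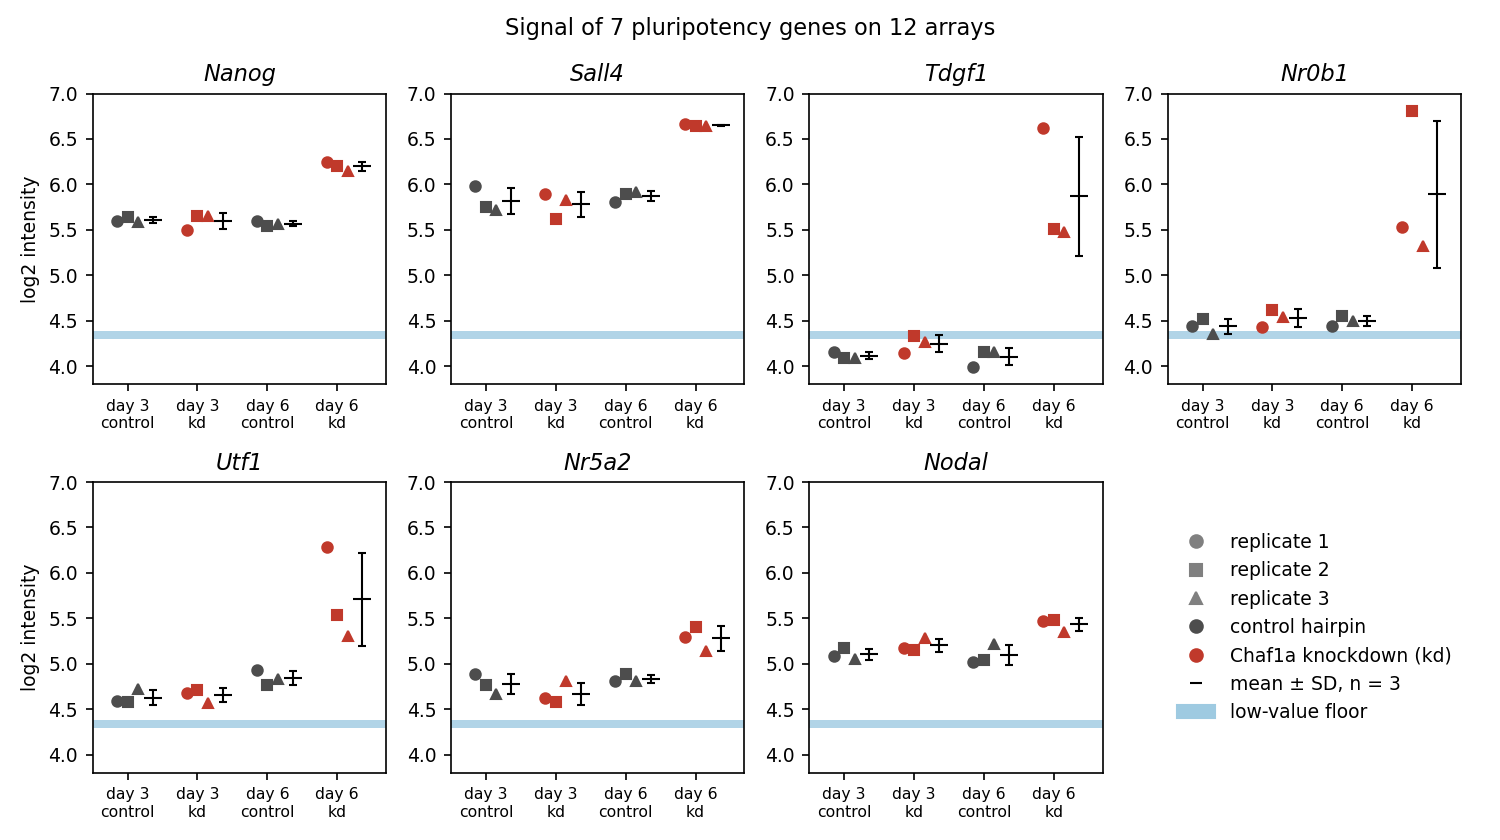
Log2 intensity of each gene on each of the 12 arrays (vertical axis), by group (horizontal axis), with symbols for the replicate number and bars for the mean ± SD of 3 arrays. The blue band spans the arrays' low-value floors, 4.30 to 4.38. The day 6 knockdown arrays lie above all other arrays for every gene, from a mean of 5.28 for Nr5a2 to 6.65 for Sall4.

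Nanog, the core homeodomain factor, gave even values within each group. At day 6 its log2 intensities were 6.24, 6.20 and 6.14 in knockdown and 5.59, 5.54 and 5.56 in control. At day 3 they were 5.50, 5.65 and 5.65 in knockdown and 5.59, 5.64 and 5.59 in control. The 9 arrays other than day 6 knockdown thus lay within 5.50 to 5.65, and the lowest day 6 knockdown array stood 0.55 above the highest day 6 control array. The day 6 means were 6.20 ± 0.05 and 5.57 ± 0.03 (SD, n = 3), a difference of 0.63 or 1.55-fold. It ranked 22 from the top among the differences of the 17860 genes, a place favoured by the choice of the gene on this contrast.

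Sall4, the zinc-finger factor, showed the same order of groups with the tightest day 6 knockdown values of the 7 genes. Its day 6 log2 intensities were 6.66, 6.64 and 6.64 in knockdown and 5.81, 5.89 and 5.92 in control. The day 3 arrays gave 5.89, 5.62 and 5.83 in knockdown and 5.98, 5.75 and 5.71 in control. Knockdown exceeded control by 0.78 at day 6 (1.71-fold), from means of 6.65 ± 0.01 and 5.87 ± 0.06 (SD, n = 3). A second Sall4 probe set lay below the floor on all 12 arrays, between 3.64 and 4.06, and averaging both gave a day 6 difference of 0.36.

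Utf1, the chromatin-associated protein, varied more between day 6 knockdown arrays. There its log2 intensities were 6.29, 5.54 and 5.31, against 4.93, 4.77 and 4.84 in day 6 control. At day 3 they were 4.68, 4.72 and 4.57 in knockdown and 4.58, 4.58 and 4.72 in control. The day 6 groups did not overlap, with a gap of 0.38 between them. The difference of 0.87 (1.82-fold, from 5.71 ± 0.51 and 4.84 ± 0.08, SD, n = 3) became 0.58 without day 6 knockdown replicate 1, the highest array.

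Nr0b1, the nuclear receptor without a classical DNA-binding domain, had the widest spread. On the day 6 knockdown arrays it gave 5.53, 6.81 and 5.32, and on the day 6 control arrays 4.44, 4.55 and 4.50, as log2 intensities. The day 3 values were 4.43, 4.62 and 4.54 in knockdown and 4.44, 4.52 and 4.36 in control. Replicate 2 stood far above the other day 6 knockdown arrays, which themselves were above all 9 remaining arrays. The means of 5.89 ± 0.81 and 4.50 ± 0.06 (SD, n = 3) differed by 1.39 (2.63-fold), and by 0.93 without day 6 knockdown replicate 2.

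Nr5a2, the nuclear receptor that binds DNA by itself, moved less. Its day 6 log2 intensities were 5.29, 5.41 and 5.14 in knockdown and 4.81, 4.89 and 4.81 in control. At day 3 the arrays read 4.63, 4.58 and 4.81 in knockdown and 4.89, 4.77 and 4.67 in control. The day 6 groups were separated by 0.25, and their means of 5.28 ± 0.14 and 4.83 ± 0.05 (SD, n = 3) differed by 0.45 (1.36-fold).

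Nodal, the ligand, gave the smallest difference. Its log2 intensities at day 6 were 5.47, 5.48 and 5.34 in knockdown and 5.02, 5.04 and 5.22 in control. At day 3 they were 5.18, 5.15 and 5.28 in knockdown and 5.09, 5.17 and 5.06 in control. The lowest day 6 knockdown array stood 0.12 above the highest day 6 control array, and the means of 5.43 ± 0.08 and 5.09 ± 0.11 (SD, n = 3) differed by 0.34 (1.26-fold). Of the 7 genes Nodal was the nearest to overlap. It ranked 94 from the top among the differences of all genes tested, a place also favoured by the choice.

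Tdgf1, the co-receptor of Nodal, was above the floor only on the day 6 knockdown arrays. The day 6 knockdown arrays read 6.62, 5.51 and 5.47 and the day 6 control arrays 3.99, 4.15 and 4.16 as log2 intensities. At day 3 the values were 4.15, 4.33 and 4.27 in knockdown and 4.16, 4.09 and 4.09 in control. All 9 arrays other than day 6 knockdown were below their own floor, so the signal of Tdgf1 there was not above the low values of the array. The day 6 means of 5.87 ± 0.65 and 4.10 ± 0.09 (SD, n = 3) differed by 1.77 as measured. With each control array set to its floor, Tdgf1 was at least 2.84-fold higher in day 6 knockdown.

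In the control and day 3 arrays, Tdgf1, Nr0b1, Utf1, Nr5a2 and Nodal also lay below the 95th percentile of the olfactory receptor genes, so the differences of these 5 genes are against values within the background range of the array. In day 6 knockdown Nr5a2 was still below that percentile on all 3 arrays, Nodal on 2 of 3, and Nr0b1 and Utf1 on 1 of 3 (replicate 3), while Tdgf1 was above it on all 3. Nanog and Sall4 lay above it on all 12 arrays. The highest day 6 knockdown array was replicate 1 for Nanog, Sall4, Tdgf1 and Utf1, and replicate 2 for Nr0b1, Nr5a2 and Nodal.

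The replicate numbers were taken to pair the arrays, since same-number arrays of the groups compared deviated together from their group means. At day 6 every pair of every gene was higher in knockdown. The 3 pairs gave 0.65, 0.66 and 0.58 for Nanog, 0.85, 0.75 and 0.73 for Sall4, and, against control values below the floor, 2.63, 1.36 and 1.32 for Tdgf1. For the nuclear receptors they gave 1.09, 2.26 and 0.82 for Nr0b1 and 0.48, 0.52 and 0.33 for Nr5a2. The remaining genes gave 1.36, 0.77 and 0.47 (Utf1) and 0.46, 0.43 and 0.12 (Nodal). The plot of same-number differences at each day shows these values beside those of day 3, which lie on both sides of 0 for every gene.

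**Figure D2:**
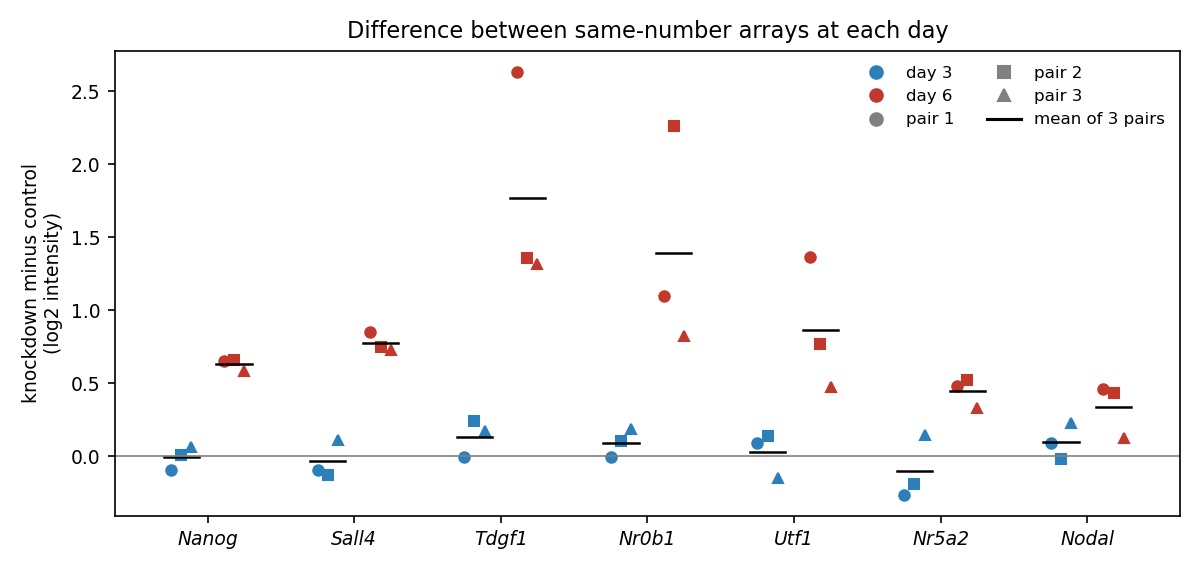
Knockdown minus control log2 intensity of same-number arrays (vertical axis) for each gene (horizontal axis), at day 3 in blue and day 6 in red, with a line at the mean of 3 pairs. All day 6 pairs are above 0, from 0.12 for a Nodal pair to 2.63 for a Tdgf1 pair whose control was below the floor. The day 3 means lie between -0.10 and 0.13, the highest being Tdgf1, whose day 3 arrays were all below the floor.

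The day 3 arrays were not used to choose the genes, so knockdown and control can be tested there. Of the 7 genes, Tdgf1 with a void test among them, 0 passed limma's test with Benjamini-Hochberg adjustment over all genes, 0 had an unadjusted p under 0.05, and the groups overlapped for all 7. Over all genes 0 of 17860, or 0%, passed, 6.01% had an unadjusted p under 0.05 and 10.8% had groups that did not overlap in either direction. The median of the 7 differences, with Tdgf1 counted as measured, was 0.03, beside -0.01 over all genes.

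Of the transcription factors, Nanog differed by -0.01 at day 3 (SE 0.06, 95% interval -0.14 to 0.12, limma adjusted p = 0.992) and Sall4 by -0.04 (SE 0.08, interval -0.22 to 0.15, adjusted p = 0.978). Utf1 differed by 0.03 with an interval of -0.36 to 0.42 (limma adjusted p = 0.991). The nuclear receptors gave intervals on both sides of 0. Nr0b1 differed by 0.09, with an interval of -0.50 to 0.69 (limma adjusted p = 0.985), and Nr5a2 by -0.10, with an interval of -0.29 to 0.08 (limma adjusted p = 0.913). Nodal differed by 0.10 (interval -0.06 to 0.25, limma adjusted p = 0.904). Tdgf1, with means of 4.25 and 4.11, was below the floor on all 6 day 3 arrays, so its day 3 test is void and no interval is given. These tests do not show that the hairpins acted alike at day 3, and smaller differences were not detectable with 3 arrays a group. For Nr0b1 the SD was 0.81 in day 6 knockdown, beside 0.10 in day 3 knockdown and 0.08 in day 3 control. For Utf1 the same SDs were 0.51, 0.08 and 0.08. The day 3 intervals of these 2 genes thus carry the day 6 spread as well.

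From day 3 to day 6, the genes differed little in control cells and were higher at day 6 in knockdown cells. These comparisons share their day 6 arrays with the contrast that chose the genes, so they are described and not tested. In control cells the day 6 minus day 3 differences were -0.04 for Nanog, 0.06 for Sall4, 0.22 for Utf1, 0.06 for Nr0b1, 0.06 for Nr5a2, -0.01 for Nodal, and Tdgf1 was below the floor on all 6 control arrays. Only for Utf1 did the day 6 control arrays lie above all day 3 control arrays, by 0.05, where 16% of all genes did so. In knockdown cells the differences were 0.60 for Nanog, 0.87 for Sall4, 1.06 for Utf1, 1.36 for Nr0b1, 0.61 for Nr5a2, 0.23 for Nodal and, against day 3 values below the floor, at least 1.52 for Tdgf1 (1.62 as measured). All 7 genes had day 6 knockdown arrays above all day 3 knockdown arrays, where 15.4% of all genes did.

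A list of 38 other genes of the pluripotency network was read beside the 7, of which 35 were each named alone by a probe set and were tested. At day 6, 0 of the 35 passed limma's test between knockdown and control, where 7 genes in all, 0.0392% of those tested, were called higher. The genes called are not the same set as the 7 described here, since they include Cdh1 and Spint1. The 7 described here were taken from the network for being higher in this contrast. A low count among the 35 was thus favoured by that choice and is not read as a result. At an unadjusted p under 0.05, 5 were higher and 1 lower, beside 4.44% of all genes in either direction. Without overlap of the day 6 groups, 10 of the 35 were higher and 1 lower, where 5% of all genes were higher. The median difference of the 35 was 0.04, 23 of 35 were above 0, and the values ran from -0.22 to 0.65. The 2 with the highest signal were Stat3, the transducer of the LIF signal, at -0.01, and L1td1, an RNA-binding protein of pluripotent cells, at 0.25.

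The largest difference on that list was that of Fbxo15, a gene expressed in embryonic stem cells, and the next was that of the Polycomb gene Phc1. Both, like Esrrb, Tfcp2l1, Zfp42 and Dppa4 below, are named after their values were seen. Fbxo15 read 7.07 ± 0.53 in day 6 knockdown and 6.42 ± 0.29 in day 6 control (SD, n = 3), a difference of 0.65 with a limma adjusted p of 0.995, and of 0.35 without day 6 knockdown replicate 1. Phc1 differed by 0.41 (limma adjusted p = 0.678). The factors Esrrb and Tfcp2l1, which act late in reprogramming, differed by 0.25 and 0.27 and did not pass (limma adjusted p = 0.999 and 0.994). Zfp42 (Rex1) differed by 0.12 and Dppa4 by -0.16 (limma adjusted p = 0.999 for each).

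At day 3, 0 of the 35 passed between the hairpins by limma's test, with 2 higher and 2 lower at an unadjusted p under 0.05, beside 6.01% of all genes in either direction.

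Several of the other pluripotency genes rose with time under both hairpins. In control cells 7 of 35 passed limma's test as higher at day 6 and 0 as lower, where 6.99% of all genes were higher and 10.6% lower. In knockdown cells 7 passed as higher and 1 as lower, where 7.46% of all genes were higher and 10.5% lower. The 4 with the smallest p were the same under both hairpins: Jam2, a junctional adhesion molecule, Fbxo15, the RNA-binding regulator Trim71 and the growth factor Fgf4. Jam2 rose by 2.01 in control and by 1.86 in knockdown (limma adjusted p = 1.40e-07 and 1.29e-07).

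The other 3 rose less than Jam2 in control cells. Fbxo15 rose by 1.28 in control and 1.88 in knockdown (limma adjusted p = 0.00303 and 2.28e-04). Trim71 rose by 0.42 and 0.58 (limma adjusted p = 0.00374 and 4.59e-04), and Fgf4 by 0.30 and 0.43 (limma adjusted p = 0.00529 and 4.96e-04). The control count fell to 3 without replicate 2 of both days or without replicate 3 of both days, and to 4 without day 3 control replicate 3 or day 6 control replicate 2. Jam2 and Fbxo15 passed in all 9 such fits under each hairpin, and Trim71 and Fgf4 in 9 of 9 in knockdown and 8 of 9 in control, each lost without a replicate number in both groups (replicate 3 for Trim71, with 0.30, and replicate 2 for Fgf4, with 0.28).

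**Figure D3:**
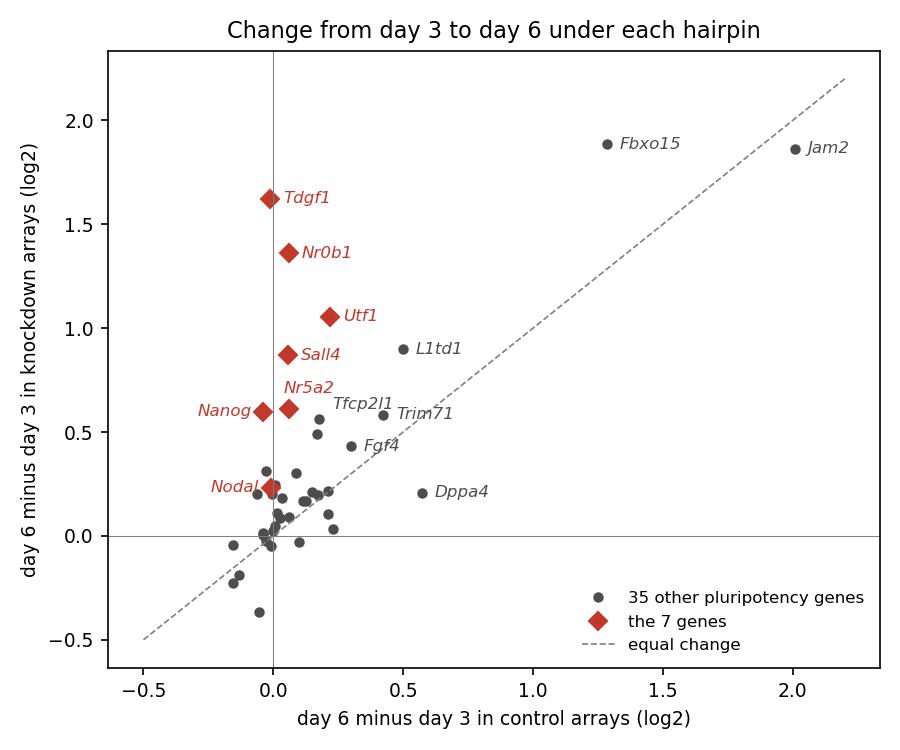
Day 6 minus day 3 log2 difference in control arrays (horizontal axis) and in knockdown arrays (vertical axis) for the 7 genes (red diamonds) and 35 other pluripotency genes (grey points), with a dashed line of equal change. The 7 genes lie between -0.04 and 0.22 in control and between 0.23 and 1.62 in knockdown, the highest being Tdgf1 against day 3 values below the floor, while Jam2 and Fbxo15 lie far from 0 on both axes; both axes share day 6 arrays with the contrast that chose the 7 genes.

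Nodal and Tdgf1 belong to a pathway in which the ligand, with its co-receptor, binds activin receptors that phosphorylate Smad2 and Smad3, and in which the Lefty proteins act as secreted inhibitors. Of 27 other genes listed for it, 23 had a probe set of their own and 22 were tested. At day 6, 0 of the 22 passed limma's test between knockdown and control, 1 was higher at an unadjusted p under 0.05, and the median difference was -0.01. Of all genes 0.0392% were called higher and 4.44% had an unadjusted p under 0.05, so these counts are not read as a result. The 2 pathway genes with the highest signal, the shared mediator Smad4 and the proprotein convertase Furin, differed by 0.03 and -0.05.

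The other steps of the pathway are named here after their values were seen. The receptor gene Acvr1b was the highest of the list at 0.31 (limma adjusted p = 0.999), and the receptor genes Acvr2a and Acvr2b differed by -0.02 and -0.03. The inhibitors Lefty1 and Lefty2, which are also targets of the pathway, differed by -0.01 and 0.14. The related ligand Gdf3 differed by 0.11 and the related co-receptor Cfc1 by -0.06. Smad2 differed by 0.00 (limma adjusted p = 0.999 for each of these).

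Close relatives of the 7 genes were also read. Of Sall1, Sall2, Sall3, Nr5a1, Nr0b2 and Cfc1, 0 of 6 passed limma's test at day 6, and 1 had an unadjusted p under 0.05. Over all genes 0.0392% were called higher there and 4.44% had an unadjusted p under 0.05. The 2 relatives with the highest signal, Nr0b2 and Sall2, differed by -0.06 and -0.03. Sall1, named after its value was seen, was 6.06 ± 0.17 in knockdown and 5.67 ± 0.15 in control (SD, n = 3), a difference of 0.39 with a limma adjusted p of 0.949. From day 3 to day 6 in knockdown cells, Sall1 rose by 0.72 (limma adjusted p = 0.00199) and Sall3 by 0.30 (limma adjusted p = 0.0292). In control cells Sall3 rose by 0.31 (limma adjusted p = 0.0238), and Sall1 differed by 0.14 and did not pass. With arrays left out, Sall1 passed in 9 of 9 fits in knockdown, and Sall3 in 1 of 9 in knockdown and 3 of 9 in control, with differences of 0.24 to 0.34 and 0.23 to 0.41.

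Markers of other cell types were set beside the 7 genes at day 6. Epithelial markers were also mostly higher in knockdown there, with 14 of 15 above 0, where 46.2% of all genes were. Of 15 tested, Cdh1 (E-cadherin) and the protease inhibitor gene Spint1 rose with knockdown, by 1.00 and 1.14 (limma adjusted p = 0.0130 and 0.0435), and 10 had an unadjusted p under 0.05, beside 0.0392% and 4.44% of all genes. The Spint1 call was lost with a replicate block (limma adjusted p = 0.0820) and in 7 of 9 fits with arrays left out, in which its difference was 0.93 to 1.29. Cdh1 passed with the block but not without day 6 control replicate 1 or 2 or without replicate 1, 2 or 3 of both groups, where its difference was 0.82 to 1.10. With only the groups compared in the fit neither passed (limma adjusted p = 0.128 for Cdh1 and 0.347 for Spint1), and with array weights Spint1 did not (0.0599). The summed intensity of the list was 2001 to 2195 on the day 6 knockdown arrays, 1466 to 1568 on the day 6 control arrays, 1455 to 1649 in day 3 knockdown and 1500 to 1659 in day 3 control. The near control sums do not mean that each marker stayed level. From day 3 to day 6 in control, 4 of the 15 passed limma's test as higher and 2 as lower, with differences from -0.99 to 1.27. In knockdown 10 passed as higher and 1 as lower. Of all genes 6.99% and 10.6% did so in control, and 7.46% and 10.5% in knockdown. Under each hairpin some of the marker calls were lost with arrays left out. The summed intensity of the 7 genes was 371 to 483 in day 6 knockdown and 223 to 242 on the remaining arrays. The part of a shift in epithelial cells in the values of the 7 genes was not tested.

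Fibroblast markers were mostly lower in knockdown at day 6, with no marker past the test. At day 6, 0 of 12 passed limma's test and 0 had an unadjusted p under 0.05, beside 0.0392% of all genes called higher and 4.44% under that unadjusted value. The 12 markers had a median difference of -0.07, with 1 of 12 above 0, where 46.2% of all genes were. Their summed intensity was 23858 to 25855 in day 6 knockdown and 24663 to 26750 in day 6 control. Of 11 proliferation markers 0 passed, with 1 at an unadjusted p under 0.05, a median of 0.11 and 10 above 0, and their sum was 8537 to 9356 in day 6 knockdown and 7445 to 8988 in day 6 control. Their part in the values of the 7 genes was not tested.

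Cell types in which some of the 7 genes are also used gave no gene past the threshold at day 6 by limma's test. In that contrast 0.0392% of all genes were called higher and 4.44% had an unadjusted p under 0.05. The counts of these short lists are therefore not read as a result. Of 10 primitive endoderm markers 0 passed, with 1 at an unadjusted p under 0.05, and their summed intensity was 606 to 643 in knockdown and 611 to 648 in control. For 7 trophoblast markers, of which 0 passed and 0 had an unadjusted p under 0.05, it was 581 to 626 and 595 to 615. For steroidogenic cells, where Nr5a1 and Nr0b1 act, 0 of 4 passed, with 0 at an unadjusted p under 0.05, and the sums of the 5 measured were 242 to 248 and 234 to 257. Germ cell markers gave 0 of 4, with 1 at an unadjusted p under 0.05, and the other 3 of the 7 measured lay below the floor on every array. The sums of those 7 were 215 to 231 in knockdown and 223 to 250 in control.

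Genes next to the 7 on the chromosome were read as a further description, by taking the 2 nearest protein-coding genes on each side in RefSeq order on GRCm38.p6. This choice was made with earlier results known. Of 28 neighbours 24 were tested, 0 passed limma's test at day 6, and 2 had an unadjusted p under 0.05. Over all genes 0.0392% were called higher and 4.44% had an unadjusted p under 0.05. The neighbours' differences ran from -0.23 for Mageb4, beside Nr0b1, to 0.48 for the glucose transporter gene Slc2a3, beside Nanog. Their median was 0.02 and the next highest value was 0.16 for Pald1, beside Nodal. Nanog lies in a cluster with the pluripotency genes Gdf3 and Dppa3, which differed by 0.11 and 0.03. Slc2a3 did not pass (limma adjusted p = 0.994).

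**Figure D4:**
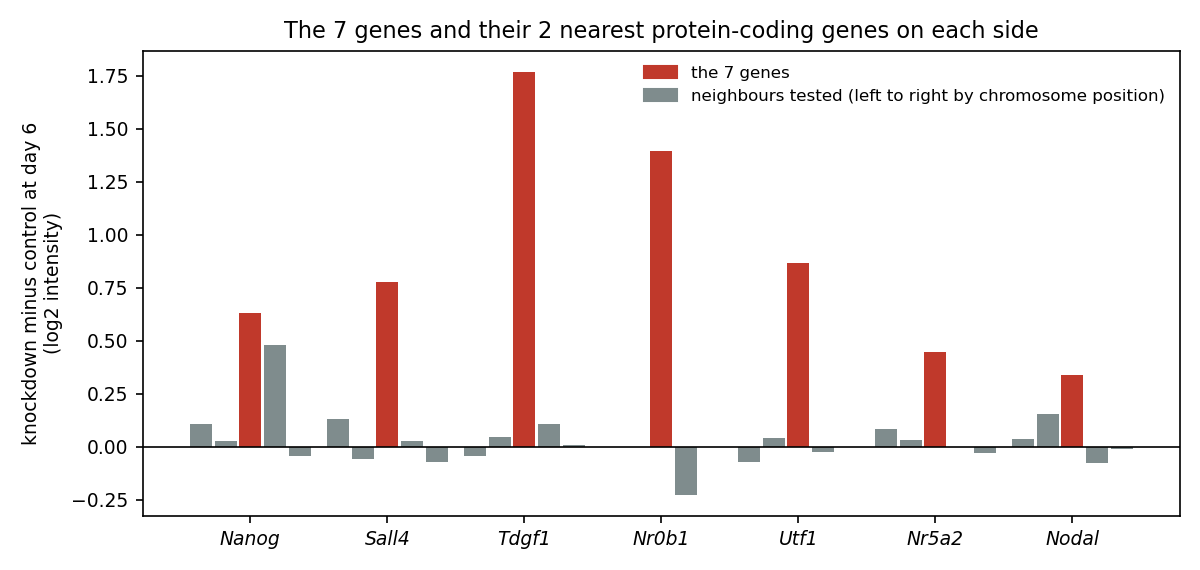
Day 6 knockdown minus control log2 difference (vertical axis) of the 7 genes in red and of their tested neighbours in grey, ordered left to right by position on the chromosome, with each bar starting at 0. Neighbours lie between -0.23 and 0.48, and the 7 genes between 0.34 and 1.77, the highest being Tdgf1 against control values below the floor.

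The genes whose signal over the 12 arrays was most like the mean profile of the 7 were Chst8, a sulfotransferase gene (Pearson's r 0.940), the metallothionein gene Mt4 (0.931), the glycosylation gene Alg13 (0.928), Smagp (0.901) and the fetuin gene Ahsg (0.898). In the profiles of the 7 genes 1 of the 4 groups, day 6 knockdown, stands apart, so such an r reflects the group means and carries no test. The 5 genes most like Nanog alone, the 7 left aside, were Chst8 (0.932), Mt4 (0.927), the epithelial splicing regulator Esrp1 (0.884), the epithelial adhesion gene Epcam (0.872) and Gchfr (0.865). Their day 6 knockdown minus control differences were 0.36 for Chst8, 0.19 for Mt4, 0.48 for Alg13, 0.38 for Smagp and 0.26 for Ahsg. For the genes like Nanog alone they were 0.41 for Esrp1, 1.11 for Epcam and 0.13 for Gchfr. These 8 genes were picked for following profiles that hold the day 6 rise. Their day 6 differences were thus favoured by that choice and are given without a test. Among the 7 genes themselves, the 21 pairwise r ran from 0.736 to 0.957. High values were favoured here, since all 7 were chosen for being higher in day 6 knockdown.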

How the data were processed

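Signal was measured on 12 Affymetrix arrays from 100 ng of RNA each, named polyA RNA by the labels and total RNA by the labels' protocols. The deposited values are intensity values, made by RMA with the program Affymetrix Expression Console, version 1.3.0.187, as the authors' tools are listed per the submitters' processing notes. No genome build or annotation version of the array is given in the sources used here. The values ran from 4.71 to 13421 on a linear scale, so log2 was taken of each deposited intensity. Of 41345 probe sets, 23521 named 1 gene in the platform annotation table, 1814 several and 16010 none, and only the first were used. Genes past the low-value filter, an array's own 30th percentile on at least 3 arrays, were tested two-sided with limma 3.58.1 (R 4.3.3) in a fit of the 4 group means to all 12 arrays, which left 8 residual degrees of freedom, at a Benjamini-Hochberg threshold of 0.05. The script was tested on simulated data. Tables and plots used Python 3.11.15, pandas 2.3.3 and matplotlib 3.10.9.

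The 7 genes and the gene lists were chosen with earlier results of these data known. Named genes were the 7, Chaf1a, the induced factors, up to 4 members of a list past the threshold by smallest p or else the 2 brightest, and the 5 genes most like the 7 or Nanog. Other names are marked in the text. Same-number arrays correlated after removal of the group means in 12 of 12 pairs of the groups compared (r 0.137 to 0.373, beside -0.279 to -0.012 in 24 other pairs), so the numbers were taken to pair the samples. Over all groups 17 of 18 such pairs were above 0.1, the lowest at 0.00063, and other pairs reached 0.025. The alternatives were a replicate block, no filter or the 50th percentile, renewed quantile normalisation, the mean of probe sets, 16 added before log2, array weights, a trended robust variance, only the groups compared, and each array or number left out.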

Additional observations from a re-analysis of the deposited data

How the results depend on the processing

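The number of arrays limits the precision, and Tdgf1 was below the floor on 9 of 12. With the replicate block, 0 of the 7 genes passed at day 3, their median stayed at 0.03, 8 other pluripotency genes were called higher with time in control and 9 in knockdown, and 3 listed genes lost a call: Spint1 at day 6 (adjusted p 0.0820), Tgif2 with time in control (0.0607) and Bub1 with time in knockdown (0.0548). Over all genes the block moved the higher calls with time from 1248 to 1398 in control and from 1332 to 1524 in knockdown. No alternative called any of the 7 at day 3, where none called any gene of any kind. At day 6 none called any other pluripotency gene higher or any Nodal pathway gene, and no setting called more than 8 genes higher. The other pluripotency genes are those left after the 7 were chosen from this day 6 contrast. The day 3 differences of Nanog, Sall4 and Utf1 changed sign without passing, to 0.017, 0.0049 and -0.031 with array weights. Without replicate 1 of both groups Nanog was 0.036 and Utf1 -0.0050, and without replicate 2 of both groups Sall4 was 0.0094 and Utf1 -0.028. Leaving out single arrays, they ranged from -0.034 to 0.043, from -0.091 to 0.047 and from -0.0031 to 0.073. The median of the 7 at day 6 was 0.63 with the mean of probe sets, 0.62 with 16 added, and 0.61 to 0.80 with arrays left out. From day 3 to day 6 in knockdown it was 0.61, 0.71, and 0.77 to 0.92, with 0.78 and 0.79 without replicate 1 or 2 of both groups. The count of other pluripotency genes higher with time in control was 3 to 7 with arrays left out. The number of genes called at day 6 was 2 with only the groups compared, and with arrays left out it was 0 without replicate 3 of both groups, 1 without replicate 2 of both groups, 4 without replicate 1 of both groups, and 3, 2 and 4 without day 6 control replicate 1, 2 or 3. The 50th percentile filter removed Nr0b1, Utf1, Nr5a2 and Nodal, so it gave no median. The cause of these shifts was not tested.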

Other observations

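Some genes of the Nodal pathway other than the ligand and co-receptor passed the test with time, and the counts are not read as a result about the pathway, since many genes of all kinds passed it. In control cells 3 of 22 passed limma's test as higher at day 6 than at day 3 and 2 as lower, where 6.99% and 10.6% of all genes did. In knockdown cells 5 passed as higher and 2 as lower, where 7.46% and 10.5% of all genes did. The 4 with the smallest p in control were the signal repressors Skil and Smad7, which fell by 0.62 and 0.69 (limma adjusted p = 8.26e-04 and 0.00129), the mediator Smad3, which rose by 0.36 (limma adjusted p = 0.00610), and the receptor gene Acvr2b, which rose by 0.29 (limma adjusted p = 0.0332). The fifth, Tgif2, rose by 0.17 (limma adjusted p = 0.0478) and did not pass in 9 of 9 fits with arrays left out, with the replicate block (0.0607) or with no filter (0.0640). In knockdown Smad7 fell by 0.64, Skil fell by 0.51, and the corepressor Tgif2 and Smad3 rose by 0.30 and 0.36 (limma adjusted p = 0.00185, 0.00253, 0.00291 and 0.00620), and Acvr2b rose by 0.28 (limma adjusted p = 0.0402). The receptor gene Acvr1b and the Smad partner Foxh1, named after their values were seen, rose in knockdown by 0.58 and 0.36 (limma adjusted p = 0.00931 and 0.0241), and in control differed by 0.19 and 0.14 (limma adjusted p = 0.392 and 0.385). With arrays left out, Smad7 and Skil passed in 9 of 9 fits under each hairpin, and Tgif2 and Acvr1b in 9 of 9 in knockdown. Smad3 passed in 8 of 9 in control and 7 of 9 in knockdown, Acvr2b in 3 of 9 in control, with differences of 0.19 to 0.40, and in 1 of 9 in knockdown, with 0.17 to 0.35, and Foxh1 in 2 of 9 in knockdown, with differences of 0.25 to 0.45. Whether these changes differ between the hairpins was not tested.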
